A study of Mus musculus with 7 samples.

Results

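The 10 genes described here are the receptor Trem2, its adaptor Tyrobp, and 8 partners or relatives: Apoe, Syk, Plcg2, Inpp5d, Abi3, Spi1, Cd33 and Bin1. Their human counterparts lie in the TREM2 signalling pathway or at loci linked to Alzheimer's disease risk in microglia. They were taken by symbol from the probe annotation, 10 of the 19505 genes that it names on the array. Each had 1 probe set, so keeping the set with the highest mean removed nothing. Every one of the 10 passed the filter on dim genes, and 10004 genes were tested in all.

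Expression was measured on 7 arrays, 1 per sample. The 4 tested samples were microglia from 5xFAD;B2m-/- mice (called knockout) and the 3 others were microglia from 5xFAD;B2m+/+ mice (called wildtype), all on the C57BL/6 strain. The 5xFAD transgenes are expressed in neurons, and mice that carry them form amyloid plaques. Both genotypes carried them, so the effect of amyloid itself on these genes was not measured. B2m encodes the light chain of MHC class I, without which few CD8+ T cells develop. The label gives the B2m allele for the whole animal, so its loss was not restricted to microglia. Cells were sorted from the brain as viable and positive for CD45 and CD11b, a gate that other myeloid cells can also enter. Age, sex and batch are not given in the labels. Replicate numbers are not given either, so those used here follow the order of the deposited samples within each genotype. No label says that arrays came from separate animals, so a p-value here reflects how far these samples scatter, and some of that scatter may be technical.

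Trem2 is a surface receptor of microglia that binds lipids, lipoproteins and amyloid. It has no signalling tail of its own and pairs with Tyrobp (DAP12), whose intracellular ITAM motif recruits the kinase Syk. Syk activates Plcg2, which makes calcium and diacylglycerol signals, while the phosphatase encoded by Inpp5d (SHIP1) removes the phosphoinositide on which part of this signalling depends. In mouse amyloid models, Trem2 is required for microglia to gather round plaques and to take on the disease-associated state.

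B2m itself was 10.40, 10.56, 10.47 and 10.24 in the knockout arrays, against 13.42, 13.41 and 13.39 in the wildtype arrays, on the log2 scale of the deposited values. The genotypes did not overlap, and the targeted transcript went with the labels. All 12 microglial markers named on the array (P2ry12, Tmem119, Cx3cr1, Csf1r and 8 others) lay above the background line, the level under which 95% of an array's negative control rows fall. Their mean was 12.21 to 12.36 in knockout and 12.23 to 12.32 in wildtype arrays. B2m lay above this line on all 7 arrays, those of the knockout included, and the source of its remaining signal was not tested. None of 9 astrocyte, 8 oligodendrocyte, 10 T and NK cell or 5 B cell markers, and 1 of 9 neuronal markers (Map2), lay above that line in at least 3 arrays. Neutrophil markers did in 5 of 7 cases. Their mean was 10.07, 10.62, 11.36 and 11.97 in the knockout arrays and 10.21, 10.81 and 10.10 in the wildtype arrays. Monocyte markers did in 2 of 7 cases, with means of 8.30 to 9.38 in knockout and 7.98 to 8.50 in wildtype arrays, and border-associated macrophage markers in 4 of 8, with means of 8.83 to 8.98 in knockout and 8.70 to 9.16 in wildtype arrays. Endothelial and mural markers did in 6 of 14 cases, with means of 9.29 to 9.40 in knockout arrays, against 9.93, 9.97 and 9.17 in wildtype replicates 1, 2 and 3. In knockout minus wildtype, 0 of these 14 lay above 0 (median -0.298), and 5 were lower at an unadjusted limma p under 0.05. Above 0 lay 7 of 7 neutrophil markers (median 0.665), 3 of 4 tested monocyte markers (median 0.725) and 6 of 12 microglial markers. Higher at that p were 1, 2 and 1 of them. Over all tested genes, 3.54% were lower and 8.39% higher at that level. No marker of these lists passed after adjustment. In sorted populations such as these, fewer cells of a type and less RNA per cell cannot be told apart.

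No member differed between the genotypes past the threshold. Over all tested genes, limma with Benjamini-Hochberg adjustment called 5 genes, 0.05%, and 0 of the 10 members were among them (adjusted p from 0.464 to 0.991). At an unadjusted p under 0.05 limma counted 11.9% of tested genes and 0 of the 10 members. Knockout and wildtype arrays did not overlap in 10.9% of tested genes and overlapped for all 10 members. Differences were above 0 for 3 members (Trem2, Tyrobp and Abi3) and below 0 for 7, beside 48.6% of all tested genes above 0. The median member differed by -0.05 on the log2 scale, and the median of all tested genes by -0.01. Sizes were small, with a median absolute difference of 0.08 over the members and 0.12 over all tested genes.

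The intervals show what these 7 arrays leave room for. Over the 10 genes, the 95% confidence intervals of the knockout to wildtype ratio lay between 0.669-fold, the lower bound for Apoe, and 1.36-fold, the upper bound for Trem2. The median standard error was 0.11 over the members and 0.12 over all tested genes. Bin1 had the tightest estimate of the 10, and Apoe the widest, with a standard error at the 93.0th percentile of tested genes.

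**Figure D1:**
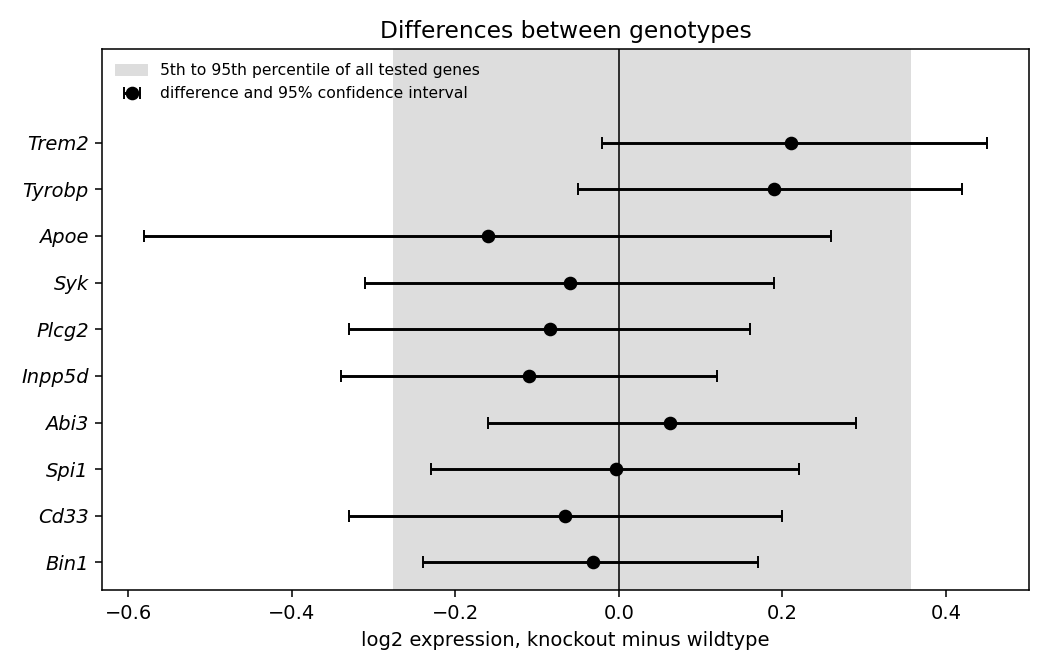
Log2 expression in knockout minus wildtype microglia for the 10 genes (points) with 95% confidence intervals from limma (bars), and the 5th to 95th percentile of differences over 10004 tested genes (grey band, -0.28 to 0.36). All 10 intervals cross 0, and Trem2 and Tyrobp lie farthest to the right.

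**Figure D2:**
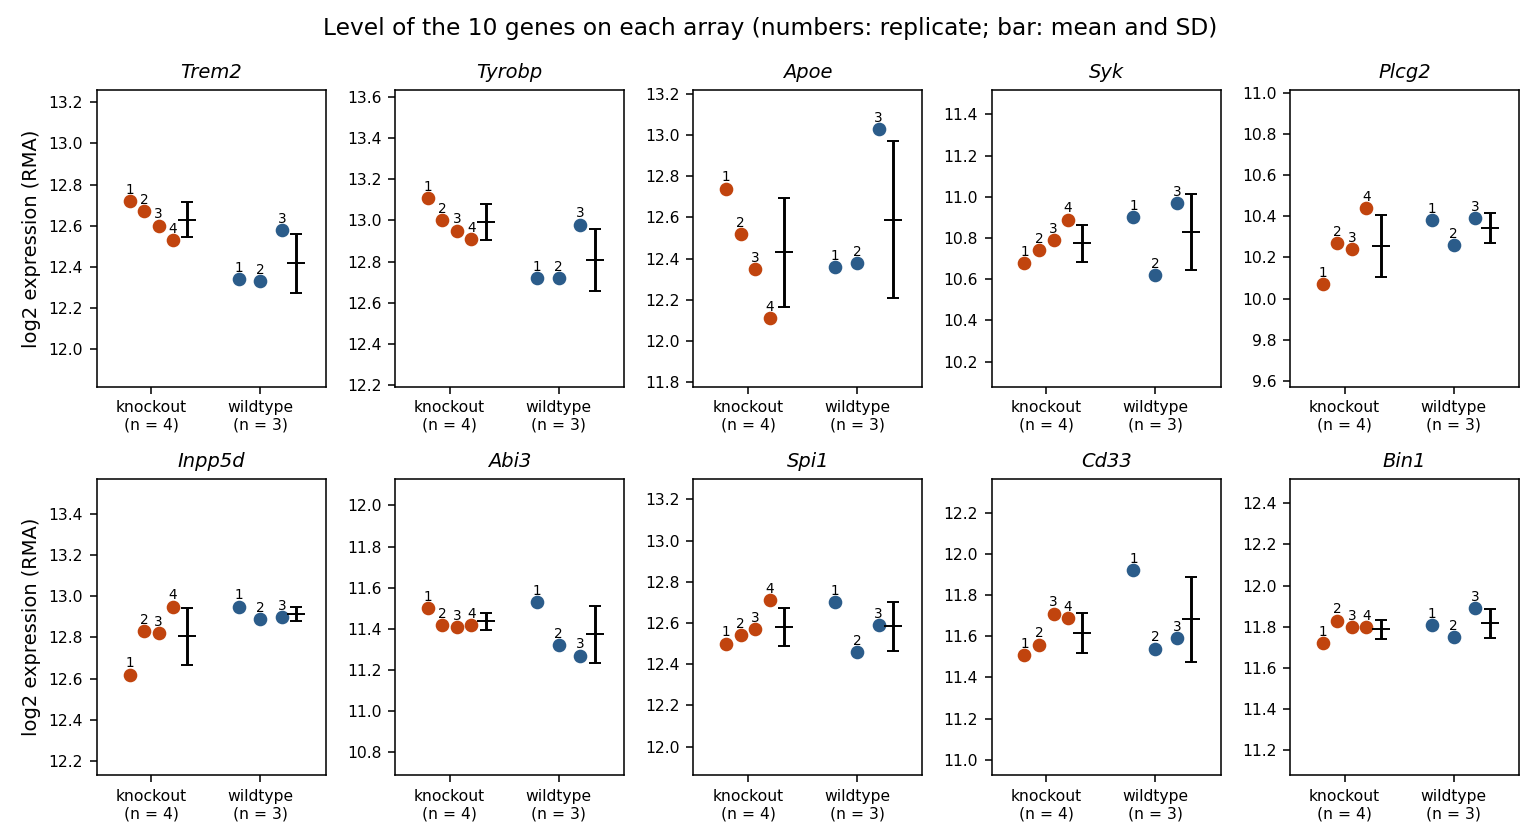
Log2 expression of each of the 10 genes on every array (points, numbered by replicate) in knockout (left, n = 4) and wildtype (right, n = 3) microglia, with the mean and SD beside them, every panel spanning the same height. The genotypes overlap in all 10 panels. Apoe has the widest spread, from 12.11 to 13.03.

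Spi1 encodes PU.1, the transcription factor that sets myeloid identity and drives many microglial genes. It was 12.50, 12.54, 12.57 and 12.71 in knockout arrays, against 12.70, 12.46 and 12.59 in wildtype arrays. The arrays of both genotypes interleaved, and both means were 12.58. The difference was -0.004 (SE 0.10, limma adjusted p = 0.991), with a fold interval of 0.851 to 1.17. Spi1 lies on chromosome 2, as B2m does, with 118 tested genes between them in the order of the reference gene table.

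PU.1 binds a purine-rich core that holds the letters GAGGAAG. Windows from 250 bases before to 50 bases after annotated starts were searched for these letters on both strands (CTTCCTC on the other), with no other motif searched. RefSeq's table for build GRCm38.p6 held windows for 6 of the 10 genes (Trem2, Apoe, Syk, Plcg2, Inpp5d and Cd33), 9 windows in all. The core was in 3 of the 9 windows, 1 each for Trem2, Inpp5d and Cd33, and in 13.6% of all 32851 windows in the table. Shown here are the stretches before the start that hold it, with the core or its complement in capitals.
Trem2, chr17:48346330-48346396, plus strand: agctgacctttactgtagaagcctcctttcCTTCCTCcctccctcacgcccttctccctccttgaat
Inpp5d, chr1:87620262-87620311, plus strand: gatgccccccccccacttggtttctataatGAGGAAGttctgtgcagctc
Cd33, chr7:43533361-43533421, minus strand: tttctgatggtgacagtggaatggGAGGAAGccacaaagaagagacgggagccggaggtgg
The core ends 35 bases before the annotated start in Trem2, 14 in Inpp5d and 220 in Cd33. A match of letters is a description and not a bound site, and a link of these genes to PU.1 was not tested. Of these 3 genes, Trem2 was above 0 and Inpp5d and Cd33 below 0 in the comparison of genotypes.

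Among 14 other tested regulators that work with PU.1 or shape myeloid cells, 4 lay above 0 and 10 below, with a median of -0.04 that was near 0 without wildtype replicate 1. None was called, and 0 reached an unadjusted p under 0.05. Irf8, the interferon regulatory factor that partners PU.1, differed by 0.19 (SE 0.12) and Runx1, a regulator of blood cell development, by -0.16 (SE 0.12). Bhlhe41, a repressor in microglia and macrophages, differed by 0.18 (SE 0.15) and Cebpb by -0.12 (SE 0.11). Both of these last genes lay below the background line on all 7 arrays. Csf1r, the receptor that microglia need to survive and a known PU.1 target, was 13.31 ± 0.04 (SD, n = 4) in knockout and 13.37 ± 0.10 (SD, n = 3) in wildtype arrays.

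Apoe encodes the lipoprotein that is a Trem2 ligand and one of the genes microglia raise most around plaques. It was 12.74, 12.52, 12.35 and 12.11 in knockout arrays, against 12.36, 12.38 and 13.03 in wildtype arrays. The highest value belonged to wildtype replicate 3 and the lowest to knockout replicate 4. The other wildtype arrays lay within the knockout range. Apoe spanned 0.922 over the 7 arrays, more than any other member. The means were 12.43 ± 0.27 (SD, n = 4) in knockout and 12.59 ± 0.38 (SD, n = 3) in wildtype, a difference of -0.16 (SE 0.19, limma adjusted p = 0.777) or 0.896-fold with an interval of 0.669 to 1.20. The sign rested on 1 library, since without wildtype replicate 3 the difference was 0.06, while without wildtype replicates 1 and 2, which left 1 wildtype array, it was -0.60. Astrocytes also make Apoe, and none of their 9 markers named on the array lay above the background line in at least 3 arrays. Border-associated macrophage markers did in 4 of 8 cases. Their mean was highest in wildtype replicate 3, at 9.16, and next in knockout replicate 1, at 8.98, as was Apoe. The other arrays did not keep the same order. The part of other cell types in the Apoe values was not tested.

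Other genes of lipid handling, counted with the nuclear receptor Rxra, lay around 0. Of 8 tested, 4 were above and 4 below, with a median of 0.01 that was -0.02 without knockout replicate 4 and 0.04 without wildtype replicate 2, and none was called or reached an unadjusted p under 0.05. Lrp1, a receptor that takes up ApoE, differed by -0.19 (SE 0.12), the lysosomal lipase Lipa by 0.14 (SE 0.11), the lipoprotein lipase Lpl by -0.10 (SE 0.11) and the sorting receptor Sorl1 by 0.11 (SE 0.13).

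Trem2 was 12.72, 12.67, 12.60 and 12.53 in knockout arrays, against 12.34, 12.33 and 12.58 in wildtype arrays. Wildtype replicates 1 and 2 were the 2 lowest arrays, and wildtype replicate 3 lay between knockout replicates 3 and 4. The means were 12.63 ± 0.09 (SD, n = 4) in knockout and 12.42 ± 0.14 (SD, n = 3) in wildtype. The difference was 0.21 (SE 0.11, limma adjusted p = 0.464), 1.16-fold with an interval of 0.985 to 1.36. An exact permutation test over the 35 splits of the arrays gave a two-sided p = 0.0857, where the smallest possible is 0.0286.

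Tyrobp, the adaptor without which Trem2 does not signal, followed nearly the same order of arrays. It was 13.112, 13.001, 12.947 and 12.907 in knockout arrays, against 12.717, 12.721 and 12.975 in wildtype arrays. Again wildtype replicates 1 and 2 were the 2 lowest, and knockout replicates 1 and 2 the 2 highest. Its means were 12.99 ± 0.09 (SD, n = 4) in knockout and 12.80 ± 0.15 (SD, n = 3) in wildtype. The difference was 0.19 (SE 0.11, limma adjusted p = 0.514), 1.14-fold with an interval of 0.966 to 1.34, and the exact permutation p was 0.143 (two-sided).

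Both of these values depended on which wildtype arrays were in the fit. Without wildtype replicate 3 the differences were 0.30 for Trem2 and 0.27 for Tyrobp, with limma adjusted p of 0.285 and 0.328. Without wildtype replicates 1 and 2, leaving 1 wildtype array, they were 0.05 and 0.02. Wildtype replicates 1 and 2 were also the arrays highest in endothelial and mural markers, and the part of those cells in the Trem2 and Tyrobp values was not tested.

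**Figure D3:**
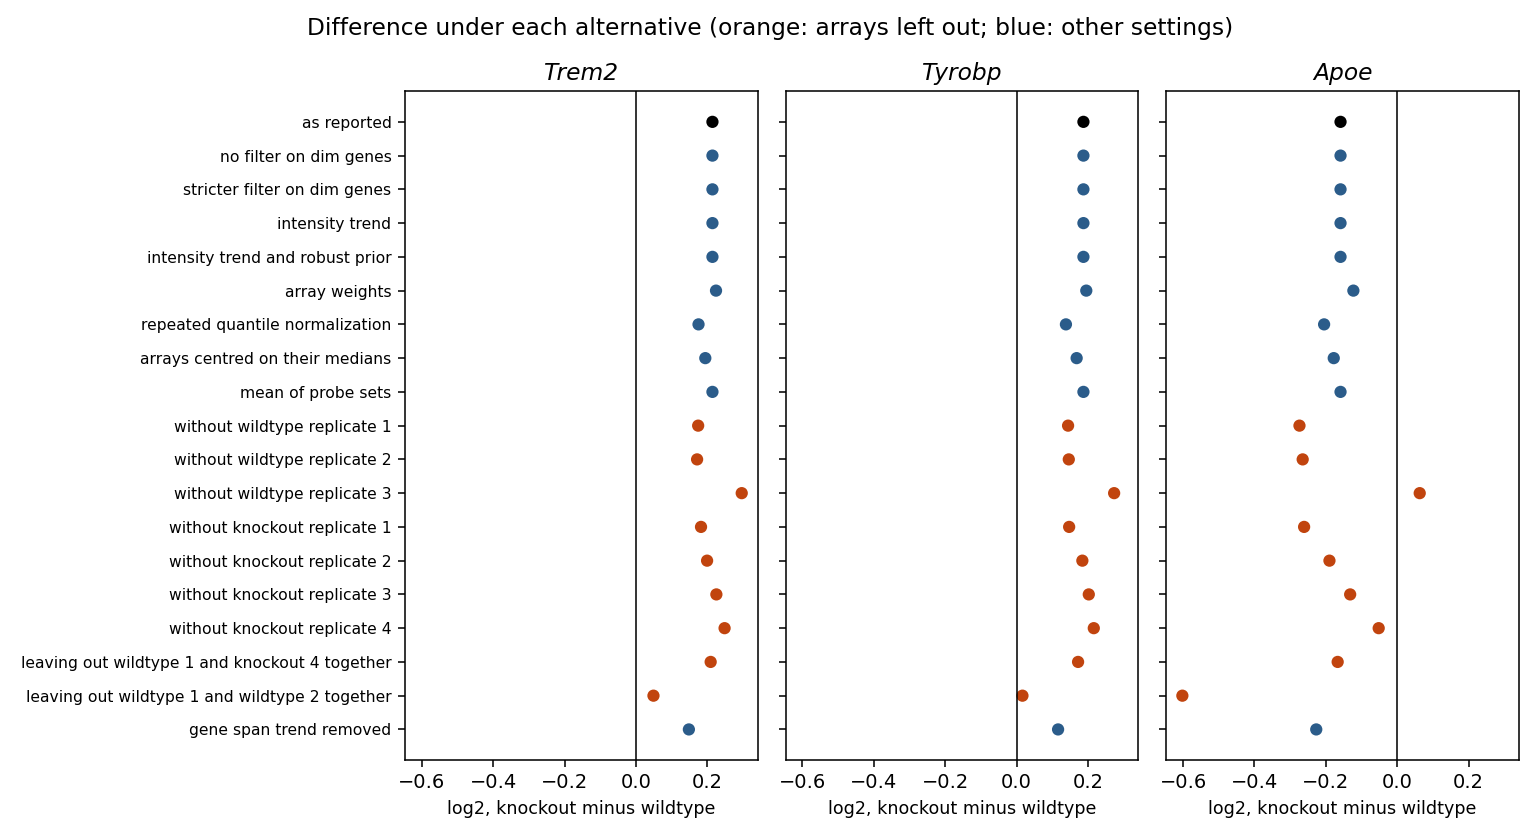
Difference between knockout and wildtype in log2 expression for Trem2, Tyrobp and Apoe under the reported setting (black), with arrays left out (orange) and under other settings (blue). Trem2 and Tyrobp stay above 0 in all of them, down to 0.05 and 0.02, and Apoe runs from -0.60 to 0.06.

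Among Trem2's relatives in the same gene family, Trem1 and Trem3 followed another order. Both are receptors of neutrophils and monocytes and also signal through Tyrobp, and other tested members of the family are not described here. Trem1 was 9.07, 9.87, 10.19 and 11.46 in knockout arrays, against 9.45, 10.01 and 9.01 in wildtype arrays. Its highest array was knockout replicate 4, where neutrophil markers were also highest, at a mean of 11.97. Trem3 was 9.24, 9.67, 10.02 and 10.48 in knockout arrays, against 9.42, 9.81 and 9.15 in wildtype arrays, with the same array on top. The neutrophil gene S100a8 put the knockout arrays in the same order, at 10.56, 11.31, 11.87 and 12.44. Neither receptor differed past the threshold, with 0.65 (SE 0.45) for Trem1 and 0.39 (SE 0.26) for Trem3. Both rested largely on single arrays. Without knockout replicate 4 the differences were 0.21 for Trem1 and 0.18 for Trem3, without wildtype replicate 3 they were 0.41 and 0.24, and without knockout replicate 1 they were 1.01 and 0.60. The knockout arrays ran in the opposite order for Trem2, and the part of neutrophils in these values was not tested.

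Hcst (DAP10), an adaptor that can act beside Tyrobp, was 8.42, 8.36, 8.47 and 8.59 in knockout arrays, against 8.11, 8.26 and 8.18 in wildtype arrays. The genotypes did not overlap, as in 10.9% of all tested genes, yet every value lay below the background line, so no fold is given. The difference of 0.28 (SE 0.10) did not pass (limma adjusted p = 0.348). Clu, an apolipoprotein that binds Trem2 and is itself a risk gene, differed by -0.35 (SE 0.17, limma adjusted p = 0.449). It lay above the background line on only 3 of the 7 arrays. Of the 8 tested genes in this receptor group, 3 lay above 0 and 5 below, around a median of -0.03 that was 0.01 without wildtype replicate 1, 0.02 without wildtype replicate 3 and -0.09 without wildtype replicate 2, and none was called.

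**Figure D4:**
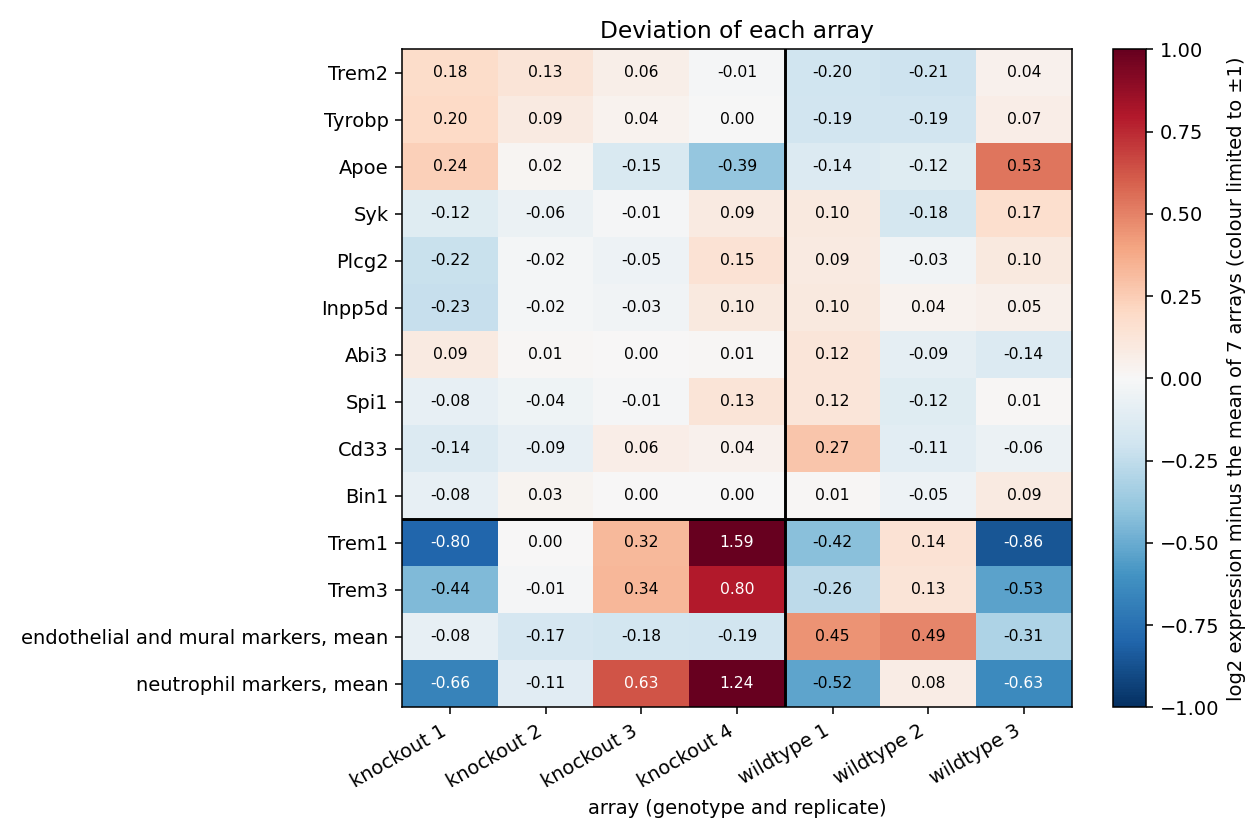
Deviation of each array (columns, knockout left of the line and wildtype right) from the mean of the 7 arrays in log2 expression, for the 10 genes and, under the line, for Trem1, Trem3 and the means of 2 marker lists. Trem2 and Tyrobp are lowest in wildtype 1 and 2, where endothelial and mural markers are highest, and Trem1 and Trem3 are highest in knockout 4 with the neutrophil markers.

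Below the receptor complex, the differences of the signalling genes lay below 0 and within the spread between arrays. Syk was 10.68, 10.74, 10.79 and 10.89 in knockout arrays, against 10.90, 10.62 and 10.97 in wildtype arrays, so both the highest and the lowest array were wildtype. It differed by -0.06 (SE 0.11, limma adjusted p = 0.872), with a fold interval of 0.806 to 1.14. Plcg2 was 10.07, 10.27, 10.24 and 10.44 in knockout arrays, against 10.38, 10.26 and 10.39 in wildtype arrays. Here knockout arrays held both extremes, with a difference of -0.08 (SE 0.11, limma adjusted p = 0.798) and a fold interval of 0.797 to 1.12. The difference was -0.02 without knockout replicate 1 and -0.15 without knockout replicate 4.

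Inpp5d was 12.62, 12.83, 12.82 and 12.95 in knockout arrays, against 12.95, 12.89 and 12.90 in wildtype arrays. Knockout replicates 1 to 3 lay below all wildtype arrays and knockout replicate 4 among them. The difference was -0.11 (SE 0.10, limma adjusted p = 0.712), 0.927-fold with an interval of 0.789 to 1.09. Without knockout replicate 1 it shrank to -0.05. For Syk, Plcg2 and Inpp5d alike, knockout replicate 1 was the lowest knockout array and knockout replicate 4 the highest, which is the reverse of Trem2, Tyrobp and Apoe.

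The 10 genes also differ in the length of gene that they span, which the choice of members did not use. Tyrobp, Apoe and Trem2 span 3.80, 5.07 and 5.88 kb in the reference gene table, whereas Syk, Inpp5d and Plcg2 span 66.2, 100.2 and 136.9 kb. Between them, Cd33, Abi3, Spi1 and Bin1 span 10.03, 12.4, 33.39 and 59.12 kb. These did not all follow span. Among the knockout arrays, replicate 1 was highest for Abi3 and lowest for Cd33, Spi1 and Bin1. The highest knockout array was replicate 3 for Cd33, replicate 4 for Spi1 and replicate 2 for Bin1. Over the 10004 tested genes, the deviation of an array from the gene's mean tracked gene span. Spearman's rho was -0.243, -0.254, -0.197 and 0.222 in knockout replicates 1 to 4 and 0.361, 0.136 and -0.149 in wildtype replicates 1 to 3. These correlations are across genes, which are not independent replicates. Longer genes were relatively higher most of all in wildtype replicate 1 and knockout replicate 4. With this trend removed from each array, a setting chosen after seeing the data, the difference was 0.15 for Trem2, 0.12 for Tyrobp, -0.23 for Apoe, -0.02 for Syk, -0.01 for Plcg2 and -0.05 for Inpp5d, and 0 of the 10 genes were called.

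Of 20 other tested kinases and adaptors that act with or below an ITAM, 5 lay above 0 and 15 below, with a median of -0.08 that was -0.01 without wildtype replicate 1. None was called. Before adjustment, 1 higher and 1 lower gene had p under 0.05, as had 8.39% (higher) and 3.54% (lower) of all tested genes. Bcl10, which links ITAM receptors to NF-kappa-B, was the higher one at 0.33 (SE 0.12, limma adjusted p = 0.356). Plcg1, the close relative of Plcg2, was the lower one. It was 9.37, 9.27, 9.39 and 9.39 in knockout arrays, against 9.65, 9.68 and 9.50 in wildtype arrays, without overlap, and differed by -0.25 (SE 0.10, limma adjusted p = 0.372). Bcl10 and Plcg1 each lay above the background line on only 3 of the 7 arrays. The adaptor Grb2 differed by 0.20 (SE 0.10), without overlap as in Plcg1, and Lat2, a membrane scaffold of myeloid cells and B cells, by 0.24 (SE 0.12). In this group 2 genes did not overlap between genotypes, beside 10.9% of all tested genes.

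Phosphoinositide genes other than Inpp5d had 3 above 0 and 10 below among 13 tested, with a median of -0.07 that was 0.001 without knockout replicate 2 and -0.14 without knockout replicate 4. No gene of this group was called or reached an unadjusted p under 0.05. Dok1, an adaptor that works with SHIP1, differed by 0.24 (SE 0.11), Pik3r1 and Pik3r5, regulatory subunits of phosphoinositide 3-kinases, by -0.28 (SE 0.20) and -0.17 (SE 0.13), and the phosphatase Inpp4b by -0.13 (SE 0.13).

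Cd33 encodes a sialic acid receptor of the Siglec family. In humans it carries inhibitory ITIM motifs and restrains uptake of amyloid by microglia, while the mouse protein differs in its signalling part. It was 11.51, 11.56, 11.71 and 11.69 in knockout arrays, against 11.92, 11.54 and 11.59 in wildtype arrays. Wildtype replicate 1 was the highest and knockout replicate 1 the lowest. The difference was -0.07 (SE 0.12, limma adjusted p = 0.863), and without wildtype replicate 1 it was 0.05. Neutrophils and monocytes also make Cd33. Its value was 11.69 in knockout replicate 4, the array with the highest neutrophil marker mean, and 11.71 in knockout replicate 3.

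The next group of 8 tested genes held other Siglecs, phosphatases that ITIM motifs recruit, and the phosphatase Ptprc (CD45). Of these, 3 lay above 0 and 5 below, and none was called. The median was -0.08 (-0.13 without knockout replicate 1 and -0.04 without wildtype replicate 3). At an unadjusted p under 0.05, 1 was lower, beside 3.54% of all tested genes. Siglec1, the sialoadhesin of macrophages, was 8.50, 8.38, 8.59 and 8.56 in knockout arrays, against 8.76, 8.66 and 8.89 in wildtype arrays. These did not overlap, as in 10.9% of all tested genes, but lay below the background line on every array. The difference of -0.26 (SE 0.10) did not pass (limma adjusted p = 0.386). Ptpn6 (SHP-1) differed by 0.23 (SE 0.12) and Ptpn11 (SHP-2) by -0.22 (SE 0.12), while Siglece differed by -0.30 (SE 0.19). Ptpn11 lay above the background line on 2 of the 7 arrays and Siglece on 4.

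Abi3 encodes an adaptor of the WAVE complex, which drives actin branching at the moving edge of a cell. It was 11.50, 11.42, 11.41 and 11.42 in knockout arrays, against 11.53, 11.32 and 11.27 in wildtype arrays. Wildtype arrays held both extremes. The difference was 0.06 (SE 0.10, limma adjusted p = 0.848), with a fold interval of 0.895 to 1.22. It was 0.14 without wildtype replicate 1, 0.04 without wildtype replicate 2 or knockout replicate 1, and 0.009 without wildtype replicate 3. Of 12 other tested genes of the WAVE and Arp2/3 complexes and their Rac switches, 9 lay above 0 and 3 below, with a median of 0.05. None was called or reached an unadjusted p under 0.05. Smallest in unadjusted p were the Arp2/3 subunits Arpc1b at 0.17 (SE 0.10) and Arpc5 at 0.14 (SE 0.10), Abi2 at 0.16 (SE 0.11) and the WAVE complex subunit Brk1 at 0.13 (SE 0.10).

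Bin1 encodes a protein that bends membranes and acts in endocytosis. It was 11.72, 11.83, 11.80 and 11.80 in knockout arrays, against 11.81, 11.75 and 11.89 in wildtype arrays, the narrowest range of the 10 genes at 0.172. It differed by -0.03 (SE 0.09, limma adjusted p = 0.924), with a fold interval of 0.849 to 1.13. Oligodendrocytes and neurons also make Bin1, in other splice forms that a single probe set does not tell apart. Of the markers of these cells, Map2 alone lay above background in at least 3 arrays. Among 13 other tested trafficking genes, 6 lay above 0 and 7 below, around a median of -0.07, and none was called. That median changed sign with the arrays in the fit, at 0.08 without wildtype replicate 1, 0.02 without knockout replicate 1 and 0.02 without knockout replicate 3, against -0.13 without knockout replicate 4. The endosome tether Eea1 was the 1 gene at an unadjusted p under 0.05, at -0.51 (SE 0.21, limma adjusted p = 0.392), beside 3.54% of all tested genes that were lower at that level. All but 1 of the Eea1 values lay below the background line. Rin3, a risk gene that activates Rab5 and binds Bin1, differed by -0.35 (SE 0.16), and Snx3 and Synj1 by 0.22 (SE 0.11) and -0.17 (SE 0.10). These last 2 did not overlap between genotypes, beside 10.9% of all tested genes that did not.

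Genes known to depend on Trem2 in the disease-associated state were examined next, and whether Trem2 acted on them here was not tested. Clec7a, Spp1 and Cd68 belong to this list but were not named on the array, so the counts and the median leave them out. Of 15 tested, 11 lay above 0 and 4 below, beside 48.6% of all tested genes above 0. The median was 0.12, against -0.01 for all tested genes. Knockout and wildtype arrays did not overlap for 2 of the 15, beside 10.9% of all tested genes. None was called. Before adjustment, 3 had p under 0.05 and all 3 were higher, as were 8.39% of all tested genes. These were the chemokine Ccl6 at 0.37 (SE 0.12), the oxysterol enzyme Ch25h at 0.58 (SE 0.21) and the lectin Lgals3 at 0.48 (SE 0.19), with limma adjusted p from 0.327 to 0.386. Axl, a receptor kinase for dying cells, was 12.28, 12.14, 12.29 and 11.96 in knockout arrays, against 11.88, 11.93 and 11.99 in wildtype arrays. Only knockout replicate 4 lay within the wildtype range, and the difference was 0.24 (SE 0.11, limma adjusted p = 0.428). The median of this group moved with the arrays in the fit. With 1 array left out at a time it was highest without knockout replicate 4, at 0.21, and next without wildtype replicate 3, at 0.16, and lowest without knockout replicate 1, at 0.09. Without wildtype replicates 1 and 2 together it was 0.03.

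Other genes at Alzheimer risk loci were mixed, with 20 of 37 tested above 0 and 17 below, and a median of 0.04. None was called. Before adjustment, 4 of the 37 had p under 0.05 and all 4 were higher, beside 8.39% of all tested genes that were higher, and 3 did not overlap between genotypes, beside 10.9% of all tested genes. The median was -0.02 without knockout replicate 4. Ms4a6d belongs to the MS4A family, whose human locus is linked to the level of soluble TREM2. It was 10.23, 10.21, 10.32 and 10.32 in knockout arrays, against 9.98, 9.84 and 10.09 in wildtype arrays. Every knockout array lay above every wildtype array, and the difference was 0.30 (SE 0.10, limma adjusted p = 0.343). Its neighbour in the family Ms4a6b was 10.01, 10.11, 9.88 and 10.17 in knockout arrays, against 9.66, 9.52 and 9.89 in wildtype arrays, which overlap at knockout replicate 3. It differed by 0.35 (SE 0.12, limma adjusted p = 0.348). The inhibitory receptor Lilrb4a differed by 0.37 (SE 0.11) and Scimp, an adaptor of immune cells, by 0.43 (SE 0.15), both without overlap and with limma adjusted p of 0.320 and 0.348. All but 1 of the Scimp values lay below the background line.

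**Figure D5:**
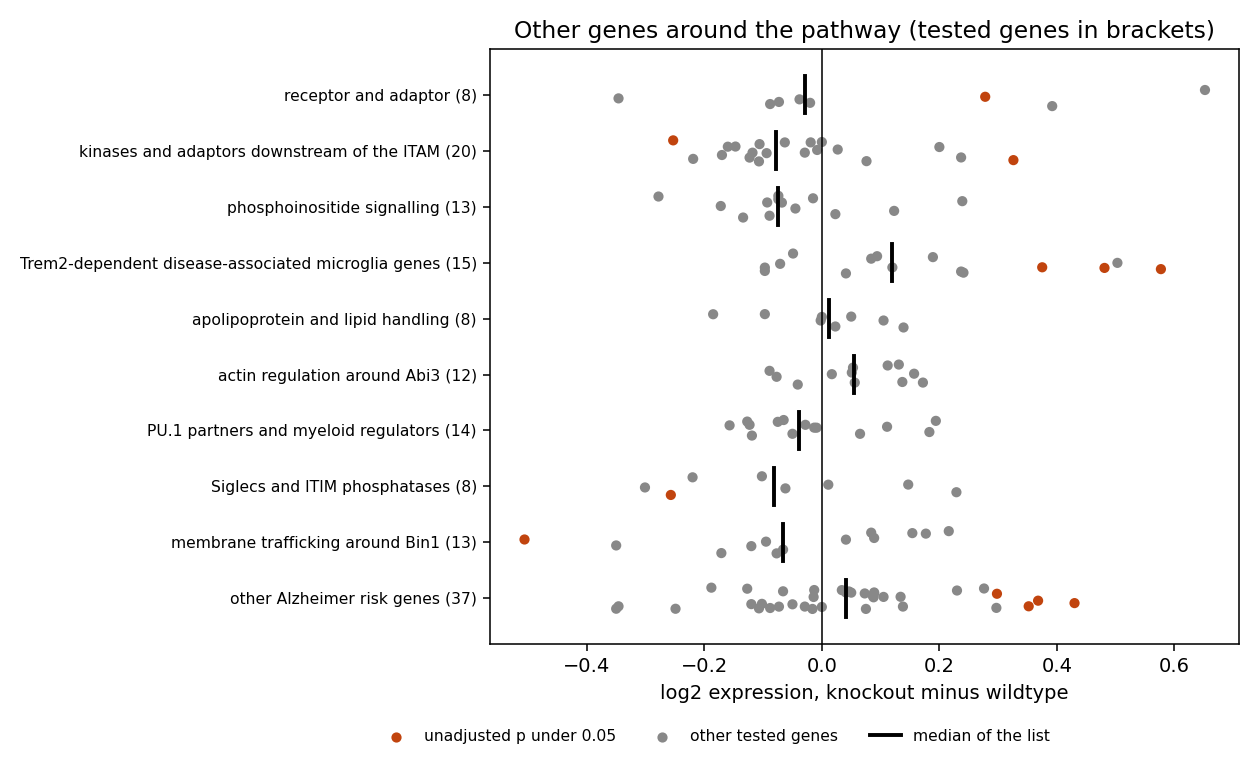
Log2 expression in knockout minus wildtype microglia for each tested gene (points) of 10 lists around the pathway, members left out, with the list's median (black bar) and genes at an unadjusted p under 0.05 in orange. Medians lie between -0.08 and 0.12, and none of these genes passed after adjustment over all tested genes.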

How the data were processed

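Microglia from 4 5xFAD;B2m-/- and 3 5xFAD;B2m+/+ samples were measured on 1 array each. The deposited values are log2 expression per probe set, made by the authors with RMA, and the submitters' processing notes name Affymetrix Expression Console 1.1. The array's genome build was not given in the sources used here. RMA normalizes between arrays, so a shift shared by most genes is removed. The table held 28846 rows, and a platform annotation gave 1 gene symbol for 19572, several for 0 and none for 9274. Symbols were updated by Entrez identifier through a RefSeq gene table (GRCm38.p6), used for names, gene order, spans and promoter windows. The highest probe set was kept for 55 genes with several.

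Tested genes were those brighter than the median named gene on at least 3 of 7 arrays. The genotypes were compared with lmFit and eBayes of limma 3.58.1 under R 4.3.3, with p-values adjusted over all tested genes at a threshold of 0.05. The fit was tested on simulated data. Rows with neg tags in their names, 5222 in all, served as a rough guide to background. The number of arrays limits the precision.

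The members, the lists and the alternatives were chosen with earlier results of these data known. Named genes are the members, B2m, up to 4 other genes per list with the smallest unadjusted p, and marker genes. S100a8 was named after its values were seen.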

Additional observations from a re-analysis of the deposited data

Results flagged for a closer look

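In 60 sets of 4 knockout arrays (the 10 genes, the other named genes and the marker means), 6 had 1 array far from the other arrays relative to the range of the group. By chance about 1 in 20 is expected to be marked in this way. Abi3 stood at 11.50 in knockout replicate 1, above the other knockout arrays at 11.41 to 11.42. Bcl10 stood apart at 9.26 in knockout replicate 4, below the others, and Inpp4b at 10.22 in the same array, above them. Arpc1b was low at 12.34 in knockout replicate 3, and Snx3 was high at 11.08 in knockout replicate 1. The mean of endothelial and mural markers was 9.40 in knockout replicate 1, the highest of the knockout arrays.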

How the results depend on the processing

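Under 18 alternatives the number of members called was 0 each time, and the number of genes called over the whole array was 4 or 5, except for 26 without wildtype replicate 3. Leaving out 1 array at a time gave 4 to 26 genes. Of 897 values of single genes under these alternatives, 882 kept their sign and side of the threshold and 15 changed sign, all of genes not called. With 1 array left out at a time, the log2 difference ran from -0.274 (without wildtype replicate 1) to 0.0628 (without wildtype replicate 3) for Apoe, from -0.167 to 0.011 for Syk, from -0.0656 to 0.052 for Spi1, from -0.138 to 0.0513 for Cd33, from -0.0658 to 0.00699 for Bin1 and from -0.00239 to 0.291 for Bhlhe41. Spi1 was 0.00196 with array weights. With wildtype replicate 1 and knockout replicate 4 both left out, Spi1 was 0.00865 and Cd33 0.0274. Without wildtype replicates 1 and 2, Cd33 was 0.025 and Lat2 -0.0205. With the gene span trend removed, Bin1 was 0.00572. The cause was not tested. Trem2 reached an unadjusted p under 0.05 in 5 of the 18 alternatives and Tyrobp in 3, with limma adjusted p no lower than 0.285 and 0.328. No paired analysis was possible because the labels give no replicate numbers. Without wildtype replicates 1 and 2, the single wildtype array is assumed to vary like the knockout arrays.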
